A study of Bos indicus with 6 samples.

Results

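Chemokines are small secreted proteins that steer leukocytes along gradients, and their receptors are G-protein-coupled proteins on the surface of those leukocytes and of some stromal and epithelial cells. The family is divided by the spacing of its first cysteines into the CC, CXC, CX3C and XC classes, and a receptor usually answers to several ligands. Inflammatory members are switched on by cytokines, homeostatic members are made constantly by stroma, vessels and mucosa, and atypical receptors take ligands up without G-protein signalling. In the oviduct, leukocytes lie within and under the epithelium and in the vessels of the wall, and the isthmus is the segment that stores sperm and passes the early embryo on to the uterus.

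The chemokine genes were found by their symbols in the isthmus table, as every symbol beginning with CXCL, CCL, CXCR, CCR or ACKR and a digit, with CX3C, or equal to XCL1 or XCR1. This gave 48 of the 24616 listed genes, 30 ligands and 18 receptors, under 47 symbols because CXCR2 is listed under 2 identifiers. The table follows an annotation that has no symbol in ACKR: the atypical receptor CXCR7, now called ACKR3, is a member under its older name, whereas DARC, CCBP2 and CCRL1, the older names of ACKR1, ACKR2 and ACKR4, are not members. Of the 48 genes, 40 had a mean of the 6 values above 5, of which 25 were ligands and 15 receptors. The 8 genes at or under 5 were the ligands CCL1, CCL3, CCL17, CCL22 and CCL27, both CXCR2 genes and XCR1. No member was at 0 reads in all 6 libraries.

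The tissue was whole-thickness isthmus of 6 Nelore (Bos indicus) cows, all healthy and multiparous, collected on day 4 from the oviduct on the side of ovulation, with 1 RNA-seq library per cow. In the LF/LCL group (large follicle, large corpus luteum; cows 617, 79 and 527) the intravaginal progesterone device was taken out 42 h before the GnRH injection, and a prostaglandin F injection had been given with device insertion. In the SF/SCL group (small follicle, small corpus luteum; cows 856, 489215 and 97) the device stayed until 30 h before GnRH and that early prostaglandin injection was left out. All 6 cows shared a 1 g progesterone device, 2 mg estradiol benzoate, prostaglandin as 0.5 mg cloprostenol and GnRH as 1 µg buserelin. The sequenced cows were chosen by the authors from the highest ranks of LF/LCL and the lowest ranks of SF/SCL, so they stand for the ends of each group and not its average. The values are read counts that the authors divided by a library size factor, called normalized counts here. They are given throughout in the order 617, 79 and 527 for LF/LCL, and 856, 489215 and 97 for SF/SCL. The values are not per transcript length, so levels are compared between cows, and the share of 1 gene in a sum also reflects its length.

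The libraries held from 23899117 to 34193164 counted reads. Epithelial (EPCAM, KRT8), smooth muscle and fibroblast (COL1A1) markers were high in every library, and the 4 red blood cell marker genes together held at most 6.66 normalized counts. SF/SCL cow 489215 stood apart from all others in its share of extreme values. Over the 15922 genes with a mean above 5, it held the highest value of 36.0% and the lowest value of 35.5%. OVGP1, an oviduct secretory product, was at 730 normalized counts in cow 489215 against 271794 and 325158 in the other SF/SCL cows. In LF/LCL it was at 287, 1782 and 1950, so for this gene cow 489215 lay within the LF/LCL range. Of the 5 smooth muscle markers, 4 (ACTA2, TAGLN, CNN1 and DES) were highest in this cow. The summed level of the 5 ran from 678407 to 798919 normalized counts in LF/LCL and was 308670, 1183220 and 372275 in SF/SCL. Values of members without cow 489215 are given below where leaving it out changed the sign of a difference or the side of a threshold. For genes that are not members they are given only in part. In whole tissue, fewer cells of a type and less RNA per cell cannot be told apart. The p-values weigh a group difference against the spread between cows of the same group, for these 6 cows only.

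The limma test of SF/SCL against LF/LCL, on log2(value + 1), covered the 15387 genes whose mean was above 5 and above their SD. Log2 fold changes are SF/SCL over LF/LCL: below 0, LF/LCL was higher. The added 1 makes the changes of genes with few counts look smaller than they are. All 25 ligands with a mean above 5 were tested, and 13 of the 15 such receptors, since CCR6 and CCR9 had an SD above their mean.

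No chemokine gene passed a Benjamini-Hochberg adjusted p-value of 0.05 in limma, 0 of 38, and neither did any other gene, 0% of those tested. The edgeR quasi-likelihood test and DESeq2 also called 0 of the 38, while DESeq2 called 2.66% of all genes. At an unadjusted p-value under 0.05, limma singled out 3 of 38, namely CCL21, which was higher in LF/LCL, and CXCL3 and XCL1, which were higher in SF/SCL. The share of all genes at that level was 8.66%, and the members' share was about the same, 7.89%. The edgeR test singled out 3 members (8.58% of all genes) and DESeq2 singled out 4 (11.5%), with CCL11 added. The 3 LF/LCL values lay wholly above or below the 3 SF/SCL values in 5 of 40 members, against 18.1% of all genes with a mean above 5. CCL21 and CXCL12 were the members higher in LF/LCL (8.56% of all genes), and CXCL3, CXCL16 and XCL1 those higher in SF/SCL (9.52%).

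More members had a log2 fold change below 0, or higher in LF/LCL, than above, and the excess depended on the model. In limma the value was below 0 in 26 of 38 tested members, in 16 of 25 ligands and 10 of 13 receptors, where 51.4% of all genes were below 0. The median log2 fold change was -0.27 over the members, -0.24 over the ligands and -0.44 over the receptors, beside -0.02 over all genes. In the edgeR test and in DESeq2, 21 of the 38 were below 0 (45.6% and 44.7% of all genes), made up of 12 of 25 ligands and 9 of 13 receptors. The median over the members was -0.15 in both, beside 0.0448 and 0.0553 over all genes. The ligand median was above 0 in both, at 0.0382 and 0.0386, and the receptor median was -0.40 and -0.38. Those models gave CX3CR1, CXCL11, CXCL13, CCL14, CCL19 and CX3CL1 a value above 0 and CXCL9 a value below 0. Without cow 489215 the limma medians were -0.52, -0.55 and -0.49, beside -0.00 over all genes. In that fit 2 of 39 members passed an adjusted p-value of 0.05, CCL14 and CCL21, both higher in LF/LCL, against 18.2% of all genes in either direction and 7.92% in that direction. An unadjusted p-value under 0.05 was found for 13 members and 33.9% of all genes. Of the 13, 9 were higher in LF/LCL (15.9% of genes) and 4 in SF/SCL (18% of genes).

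**Figure D1:**
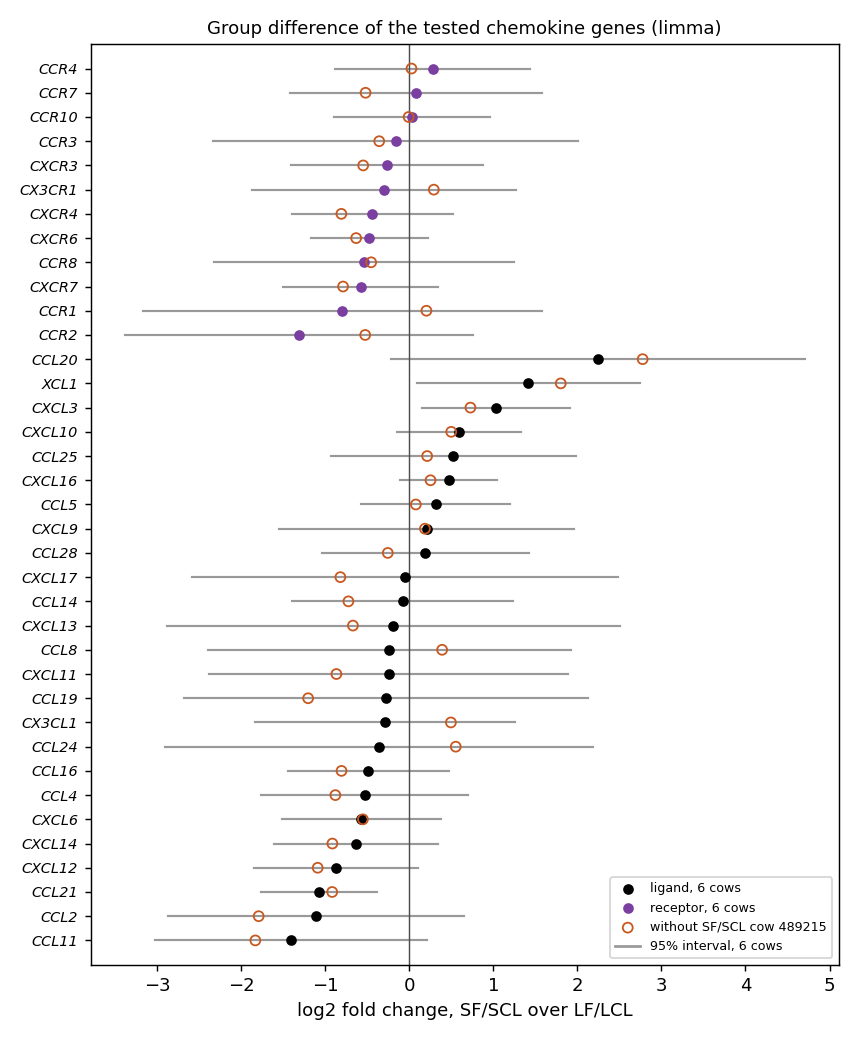
Log2 fold change (SF/SCL over LF/LCL, x axis) of tested chemokine genes in limma, with receptors above ligands and each block ordered by size. Filled points and bars are the estimate and 95% interval from 6 cows, open circles the estimate without SF/SCL cow 489215, and the bars of CCL21, CXCL3 and XCL1 alone lie clear of 0.

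CXCL12, the ligand of CXCR4 that holds leukocytes and progenitors in stromal niches, carried 67.8% of the summed ligand values. Its normalized counts were 13619, 19839.6 and 17591 in LF/LCL and 12608, 12569 and 4945 in SF/SCL. Every SF/SCL cow was below every LF/LCL cow, and cow 97 was far below the other two SF/SCL cows. The mean was 1.69 times higher in LF/LCL, a log2 fold change of -0.87 (SE 0.41, limma adjusted p = 0.635), and -1.09 (SE 0.38, adjusted p = 0.0956) without cow 489215. Because of this gene, the summed ligand values were 23310 ± 3579 in LF/LCL and 16570 ± 5230 in SF/SCL (mean ± SD, n = 3 each). With CXCL12 left out they were 6293 ± 446 and 6529 ± 1624, a difference of 236 in the other direction and smaller than either SD.

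CXCL12 is bound by CXCR4 and CXCR7. CXCR4, which signals for CXCL12 on most leukocytes, held 35.4% of the summed receptor values, with 497, 902 and 779 normalized counts in LF/LCL and 371, 865 and 435 in SF/SCL. The 2 lowest values were SF/SCL cows 856 and 97, whereas cow 489215 lay among the LF/LCL cows. For CXCR4 the log2 fold change was -0.44 (SE 0.40, adjusted p = 0.845), and -0.81 (adjusted p = 0.0781) without cow 489215. CXCR7, the scavenger of CXCL12 and CXCL11, stood at 369, 764 and 399.6 in LF/LCL and 336, 431 and 232 in SF/SCL. Its groups overlapped through cow 489215 alone, and its log2 fold change was -0.58 (SE 0.38, adjusted p = 0.766). The summed receptor values were 2047 ± 535 in LF/LCL and 1574 ± 317 in SF/SCL, a difference of -473 that was smaller than the larger SD.

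CCL21 and CCL19 are the ligands of CCR7, which guides T cells and dendritic cells to lymphatic vessels and lymph nodes. CCL21 had 658, 585 and 719 normalized counts in LF/LCL and 266, 248 and 447 in SF/SCL. All SF/SCL cows lay below all LF/LCL cows, and the mean was 2.04 times higher in LF/LCL. This was a log2 fold change of -1.08 (SE 0.29, limma unadjusted p = 0.00846, adjusted p = 0.405), and without cow 489215 it was -0.92 (SE 0.23, adjusted p = 0.0417).

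CCL19 did not follow CCL21. It had 94.2, 144 and 49.2 normalized counts in LF/LCL and 84.3, 264 and 16.3 in SF/SCL, so that the SF/SCL group held both the highest and the lowest cow. CCR7 stood at 35.6, 58.2 and 26.4 in LF/LCL and 24.3, 93.2 and 28.2 in SF/SCL, again with its highest value in cow 489215. The log2 fold changes of CCL19 and CCR7 were -0.28 (SE 1.00) and 0.08 (SE 0.62), and both were negative without cow 489215, at -1.20 and -0.52, with adjusted p-values of 0.311 and 0.451.

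The 3 lymphatic endothelium markers listed beside CCL21 did not separate the groups. Their summed level ran from 857 to 1881 in LF/LCL and from 873 to 1489 in SF/SCL. None of the 3 reached a limma unadjusted p-value of 0.05, where 8.66% of all genes did. PROX1 was at 13.3 in cow 489215 against 78.5 or more elsewhere. Fibroblast markers were lower in SF/SCL alongside CCL21, CXCL12 and CCL11. All 5 had a log2 fold change below 0 and 4 of them an unadjusted p-value under 0.05 (4.48% of all genes in that direction), with summed levels from 287776 to 356045 in LF/LCL and from 146894 to 204688 in SF/SCL and none at 0. Without cow 489215 all 5 fibroblast markers passed a limma adjusted p-value of 0.05 as lower in SF/SCL (7.92% of all genes in that direction). The part of fibroblast content in these ligands was not tested.

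**Figure D2:**
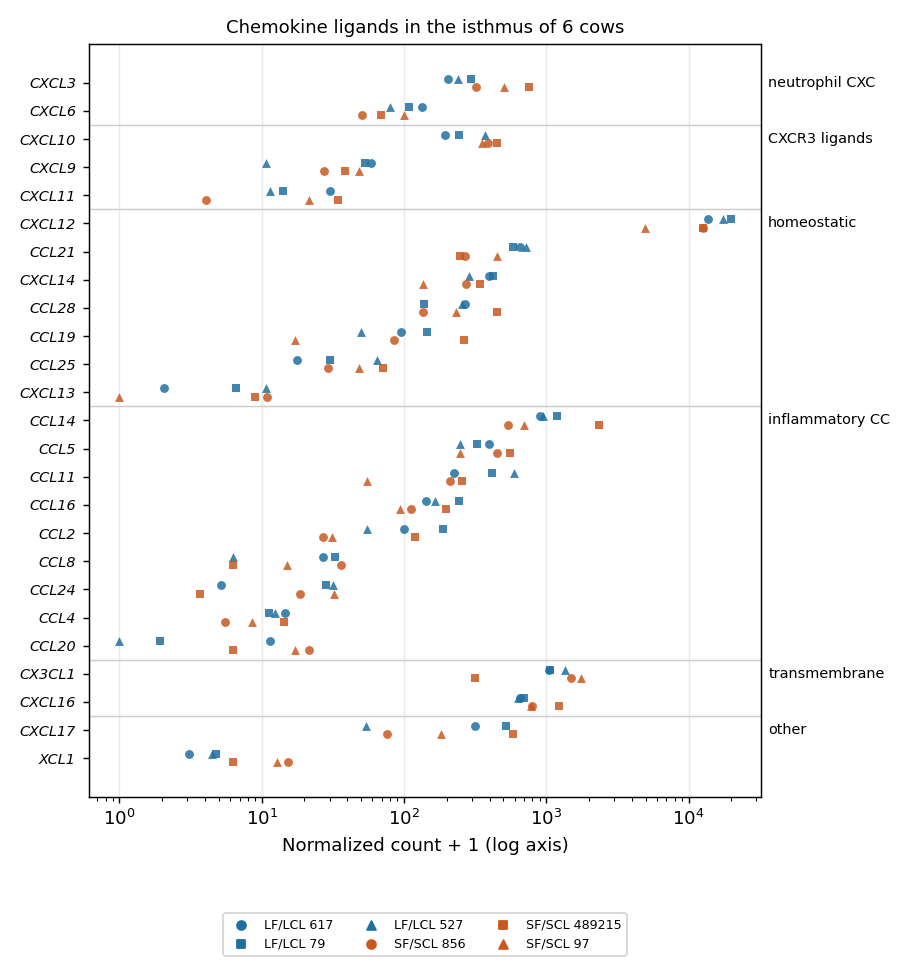
Normalized count + 1 (x axis, log scale) of the 25 ligands with a mean above 5, by role, with a point for each of the 6 cows. LF/LCL cows are blue and SF/SCL cows orange. The colours separate fully for CXCL12, CCL21, CXCL3, CXCL16 and XCL1, and the square of cow 489215 is the rightmost point of CCL14 and CCL19 and the leftmost of CX3CL1.

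None of the constitutive ligands, those above included, passed the adjusted threshold in limma with all cows. CXCL14, an epithelial and stromal chemokine, had 394, 424 and 285 normalized counts in LF/LCL and 273, 343 and 134 in SF/SCL. Only cow 489215 reached into the LF/LCL range, and the log2 fold change was -0.64 (SE 0.40, adjusted p = 0.756) with all cows and -0.92 (SE 0.33, adjusted p = 0.109) without it. CCL28, a mucosal ligand of CCR10 and CCR3 that draws antibody-secreting cells, stood at 268, 138 and 255 against 135, 450 and 231, with a log2 fold change of 0.19 (SE 0.51) that turned to -0.26 (SE 0.37) without cow 489215. Its receptor CCR10 was the steadiest member, at 20.9, 27.2 and 22.0 against 28.9, 25.3 and 18.4, and its log2 fold change was 0.03 with a 95% interval from -0.90 to 0.97, and -0.00817 without cow 489215.

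CCL25, the ligand of CCR9 in gut and thymus, had 16.7, 29.1 and 63.2 normalized counts in LF/LCL and 28.1, 70.6 and 47.7 in SF/SCL, with wide overlap. CCR9 itself had 2, 4 and 26 reads in LF/LCL and 4, 1 and 6 in SF/SCL, a level set by cow 527. CXCL13, which places B cells in follicles, was at most 13 reads in any cow and at 0 reads in cow 97, and CCL27, the skin ligand of CCR10, was at most 8 reads. The plasma cell transcripts IGJ and MZB1 were present in all cows, with IGJ from 5401 to 17087 normalized counts.

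Among the CXC ligands that draw neutrophils through CXCR1 and CXCR2, the 2 members present went in opposite directions. CXCL3 had 204, 293 and 239 normalized counts in LF/LCL and 319, 762 and 507 in SF/SCL. All SF/SCL cows exceeded all LF/LCL cows, although cow 856 did so by little over cow 79. The mean was 2.16 times higher in SF/SCL, and the log2 fold change was 1.03 (SE 0.37, limma unadjusted p = 0.0279, adjusted p = 0.496), or 0.73 (adjusted p = 0.102) without cow 489215. CXCL6 had 132, 108 and 78.2 against 50.1, 67.9 and 98.6, with overlap through cows 527 and 97 and a log2 fold change of -0.57 (SE 0.39, adjusted p = 0.781).

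GRO1, an older symbol of CXCL1 that is not a member by its name, is the close relative of CXCL3. It stood at 38.7, 65.7 and 33.4 normalized counts in LF/LCL and 53.9, 153 and 92.1 in SF/SCL, where cow 79 lay above cow 856, and its log2 fold change was 1.04 (limma unadjusted p = 0.0808). Since near-identical genes can share reads, the split between CXCL3 and GRO1 is uncertain. On the receptor side, the 2 CXCR2 genes had at most 4 reads in any library. The neutrophil receptor CSF3R ran from 9.66 to 12.6 normalized counts in LF/LCL and from 5.42 to 9.32 in SF/SCL. The 5 neutrophil markers summed to between 136 and 252 in LF/LCL and between 141 and 417 in SF/SCL, with S100A12 the largest part in every cow.

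The ligands of CXCR3, CXCL9, CXCL10 and CXCL11, are induced by interferon and draw activated T cells and NK cells. CXCL10 had 195, 244 and 372 normalized counts in LF/LCL and 386, 450 and 352 in SF/SCL. Its groups overlapped only because LF/LCL cow 527 exceeded SF/SCL cow 97, and the log2 fold change was 0.59 (SE 0.31, adjusted p = 0.67). CXCL9, at 57.6, 52.6 and 9.66 against 26.6, 37.3 and 47.7, and CXCL11, at 29.3, 13.1 and 10.5 against 3.04, 33.3 and 20.6, showed no order of the groups.

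CXCL10 was lowest where CXCL9 and CXCL11 were highest among the LF/LCL cows, in cow 617, and highest where they were lowest, in cow 527. CXCR3 had 14.7, 13.1 and 21.1 normalized counts in LF/LCL and 12.9, 20.0 and 8.67 in SF/SCL, with a log2 fold change of -0.26 (SE 0.48). IFNG, the interferon made by T cells and NK cells, had at most 1.33 normalized counts in any cow.

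Among the CC ligands of inflammation, 9 were tested and 7 had a log2 fold change below 0. CCL11, or eotaxin, which draws eosinophils through CCR3, had 223, 417 and 597 normalized counts in LF/LCL and 208, 257 and 54.2 in SF/SCL. Cow 489215 alone among the SF/SCL cows exceeded an LF/LCL cow, and the mean was 2.38 times higher in LF/LCL. The log2 fold change was -1.41 (SE 0.67, adjusted p = 0.642), and -1.83 (SE 0.63, adjusted p = 0.0931) without cow 489215. CCL24, the second eotaxin listed, stood at 4.19, 27.2 and 30.7 against 17.5, 2.66 and 31.4, and CCR3 at 3.14, 18.8 and 4.39 against 1.52, 7.99 and 13.0, both with overlapping groups. Cow 489215 was the lowest for CCL24, whose log2 fold change of -0.36 (SE 1.06) turned to 0.55 (SE 0.86) without it.

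CCL2, the main monocyte attractant and ligand of CCR2, had 98.4, 186 and 53.6 normalized counts in LF/LCL and 25.8, 118 and 30.3 in SF/SCL. Cows 856 and 97 lay below all LF/LCL cows and cow 489215 did not. The log2 fold change was -1.11 (SE 0.73, adjusted p = 0.766), and -1.79 (SE 0.53, adjusted p = 0.0628) without cow 489215. CCL8, a related attractant of monocytes, was at 26.2, 31.9 and 5.27 against 34.9, 5.33 and 14.1, with a log2 fold change of -0.24 (SE 0.90) that turned to 0.39 (SE 0.83) without cow 489215.

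CCL14, a constitutive CC ligand found in plasma, had 898, 1198 and 949 normalized counts in LF/LCL and 536, 2342 and 691 in SF/SCL. Cow 489215 was higher than every other cow, and the remaining SF/SCL cows were lower than every LF/LCL cow. With all 6 cows the log2 fold change was -0.08 (SE 0.55, adjusted p = 0.978), and without cow 489215 it was -0.72 (SE 0.18, adjusted p = 0.0361). CCL16, at 141, 244 and 165 against 111, 197 and 93.2, was highest in LF/LCL cow 79, and cow 489215 was the one SF/SCL cow above an LF/LCL cow. Its log2 fold change was -0.49 (adjusted p = 0.832) with all cows and -0.81 (adjusted p = 0.105) without cow 489215.

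Smooth muscle markers were arranged like CCL14, with cow 489215 highest for 4 of 5 (ACTA2, TAGLN, CNN1 and DES). ACTA2, the actin of smooth muscle, had 311661, 309608 and 229408 normalized counts in LF/LCL and 102587, 533926 and 106962 in SF/SCL. With all cows 0 of the 5 had a limma unadjusted p-value under 0.05 (8.66% of all genes). The groups did not overlap in 1 of them, MYH11 (18.1% of all genes with a mean above 5). Without cow 489215 the same 4 passed an adjusted p-value of 0.05 as lower in SF/SCL (7.92% of all genes in that direction), and the median log2 fold change of the 5 was -1.13. None of the 5 was at 0 in any cow, and the part of smooth muscle content in CCL14, CCL21, CCL2 or any other member was not tested.

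CCL5, made by T cells and NK cells and bound by CCR1 and CCR3, had 396, 327 and 249 normalized counts in LF/LCL and 453, 551 and 248 in SF/SCL, with overlap through cow 97 and a log2 fold change of 0.32 (SE 0.37). CCL4 had between 6 and 13 reads per library and CCL3 between 1 and 5. Near-identical copies of CCL3 and CCL4 are known in mammals, so counts of uniquely mapped reads for them are uncertain.

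CCL20, the epithelial ligand of CCR6, had the largest estimated difference of the tested members at very low counts. It had 10, 1 and 0 reads in LF/LCL and 27, 4 and 15 in SF/SCL, and LF/LCL cow 617 lay above SF/SCL cow 489215. The log2 fold change of its normalized counts was 2.24 (SE 1.03, adjusted p = 0.624), and 2.78 (SE 1.08, adjusted p = 0.127) without cow 489215. CCR6, on B cells, dendritic cells and type 17 T cells, was arranged the other way, with 2, 26 and 15 reads against 5, 0 and 6, and its fit with the filter on the mean alone gave a log2 fold change of -1.65 (limma adjusted p = 0.766).

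CXCL16 and CX3CL1 are made as membrane proteins with a chemokine domain on a stalk and are shed by ADAM10 and ADAM17. CXCL16 had 653, 696 and 636 normalized counts in LF/LCL and 789, 1233 and 787 in SF/SCL. Every SF/SCL cow was above every LF/LCL cow, and the LF/LCL cows differed by only 1.10 times between lowest and highest. The mean was 1.41 times higher in SF/SCL (log2 fold change 0.47, SE 0.24, adjusted p = 0.669). Its receptor CXCR6, on resident T cells, lay the other way at 197, 227 and 166 against 123, 173 and 128, with overlap through cow 489215 (log2 fold change -0.48, SE 0.29, adjusted p = 0.742, and -0.63, SE 0.22, adjusted p = 0.0942 without that cow).

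CX3CL1, or fractalkine, had 1045, 1061 and 1364 normalized counts in LF/LCL and 1488, 316 and 1759 in SF/SCL. Cow 489215 was lowest of all by a wide margin and the other SF/SCL cows were highest of all. The log2 fold change was -0.29 (SE 0.65) with all cows and 0.50 (SE 0.15, adjusted p = 0.0712) without cow 489215, a change of sign. Its receptor CX3CR1, on monocytes and macrophages, ran 248, 222 and 360.1 against 585, 95.9 and 187, with both the highest and the lowest value in SF/SCL and a log2 fold change of -0.30 (SE 0.65) that turned to 0.29 (SE 0.48) without cow 489215. ADAM10, at 2897, 3250.4 and 2955 against 2364, 1152 and 2241, was lower in all SF/SCL cows (log2 fold change -0.73, limma unadjusted p = 0.0483).

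The epithelial markers EPCAM, KRT8 and KRT18 were higher in every SF/SCL cow than in every LF/LCL cow, as CXCL3 and CXCL16 were. CCL20 differed: in cow 489215, the highest cow for EPCAM and KRT8, it had 4 reads against 10 in LF/LCL cow 617. Of the 5 epithelial markers tested, EPCAM, KRT8 and KRT18 had a limma unadjusted p-value under 0.05. All 3 were higher in SF/SCL (4.19% of all genes in that direction). The summed level of the list ran from 25547 to 34694 normalized counts in LF/LCL and from 44269 to 377184 in SF/SCL, with OVGP1 the largest part in cows 856 and 97. The other 3 markers overlapped between the groups. Without cow 489215, 4 of the 5 tested passed a limma adjusted p-value of 0.05 as higher in SF/SCL (18.2% of all genes in either direction). These were EPCAM, KRT8, FOXJ1 and PAX8. FOXJ1, a factor of ciliated cells, and PAX8 were lowest of all cows in cow 489215, at 2609 and 469, and its OVGP1 was below that of LF/LCL cows 79 and 527, at 1782 and 1950. EPCAM itself was at 12286, 9925 and 8529.6 in LF/LCL and 15871, 20313 and 18854 in SF/SCL. The part of epithelial content in these ligands was not tested.

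XCL1, or lymphotactin, made by activated T cells and NK cells, had 2, 4 and 4 reads in LF/LCL and 19, 4 and 11 in SF/SCL. After normalization these were 2.09, 3.75 and 3.51 against 14.4, 5.33 and 11.9. The groups did not overlap, but cow 489215 had the same 4 reads as cows 79 and 527 and was set above them by the library scaling. The log2 fold change was 1.42 (SE 0.55, limma unadjusted p = 0.0396, adjusted p = 0.541), and 1.80 (SE 0.57, adjusted p = 0.0770) without cow 489215. Its only receptor, XCR1, of cross-presenting dendritic cells, had 2, 1 and 0 reads against 6, 3 and 7, higher in all SF/SCL cows but under the level for testing.

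**Figure D3:**
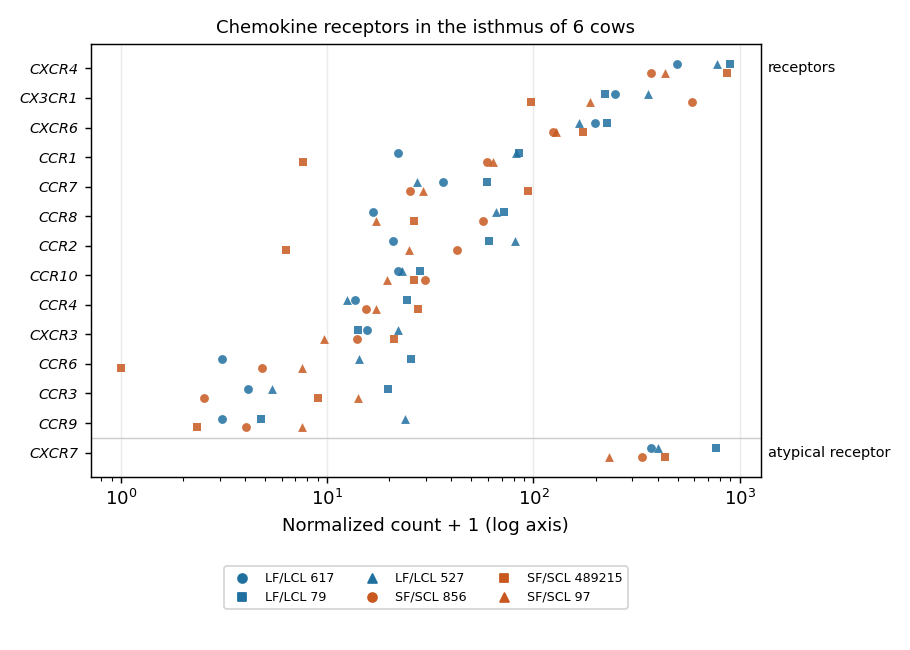
Normalized count + 1 (x axis, log scale) of receptors with a mean above 5, with a point for each of the 6 cows. LF/LCL cows are blue and SF/SCL cows orange. No receptor separates the colours fully, where the groups did not overlap in 18.1% of all genes with a mean above 5. The square of cow 489215 is the leftmost point of CCR1, CCR2, CX3CR1, CCR6 and CCR9.

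None of the 15 receptors with a mean above 5 had groups that did not overlap, against 18.1% of all genes with a mean above 5. Leaving out cow 489215, 4 of them (CXCR3, CXCR4, CXCR6 and CXCR7) were higher in all LF/LCL cows than in the other SF/SCL cows, and none the other way. Over all 40 members the count was then 17, of which 12 were higher in LF/LCL (24.8% of all genes) and 5 in SF/SCL (27.5%), beside 52.3% of all genes in both directions together.

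The receptors CCR1 and CCR2, of monocytes and macrophages, had overlapping groups. CCR1 had 20.9, 84.5 and 80.8 normalized counts in LF/LCL and 58.5, 6.66 and 62.9 in SF/SCL. CCR2 had 19.9, 60.1 and 79.9 against 41.8, 5.33 and 23.8.

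Both were lowest in cow 489215, and cow 617 was the lowest LF/LCL cow. The log2 fold changes were -0.80 (SE 0.99) and -1.31 (SE 0.86), with adjusted p-values of 0.884 and 0.764. Without cow 489215 they were 0.20 and -0.53, the first with a change of sign. The macrophage receptor CSF1R, at 539, 1022 and 1242 against 1227, 273 and 1026, and the scavenger receptor CD163, at 44.0, 384 and 297 against 224, 21.3 and 207, were also lowest in cow 489215 and next lowest in cow 617. Of the 9 macrophage and dendritic cell markers, 4 were lowest in cow 489215 (CD68 and FLT3 besides these) and 5 in cow 617 (C1QA, C1QB, C1QC, CD14 and AIF1). C1QA, at 358, 1112 and 941 against 1245, 610 and 911, was among the latter. The 9 markers summed to 1847, 4729 and 4651 in LF/LCL and 5728, 2347 and 4300.4 in SF/SCL, and their part in the receptor values was not tested.

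CCR8 and CCR4, of regulatory and type 2 T cells and of skin-homing T cells, had overlapping groups. CCR8 stood at 15.7, 71.3 and 65.0 normalized counts in LF/LCL and 56.2, 25.3 and 16.3 in SF/SCL, and CCR4 at 12.6, 23.5 and 11.4 against 14.4, 26.6 and 16.3. Their ligands had few reads: CCL1, the ligand of CCR8, had 7, 5 and 4 reads against 4, 1 and 0, and CCL17 and CCL22, the ligands of CCR4, had at most 2 reads in any library. A count of 0 allows an expected count of up to 3 reads, so no fold is given for these genes. CXCL17, a mucosal attractant of myeloid cells, differed by 11.1 times between cows in no order of group, at 316, 524 and 52.7 against 74.4, 583 and 182.

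**Figure D4:**
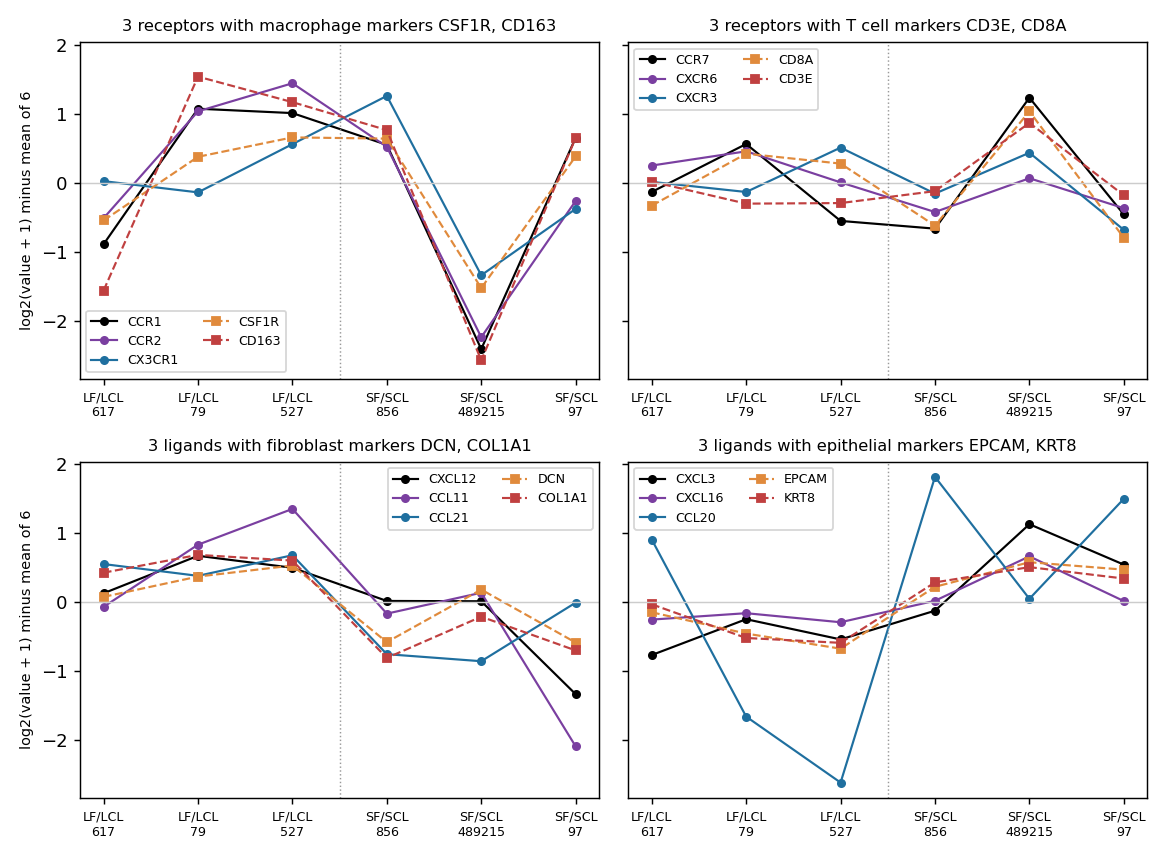
Log2(value + 1) of each gene in each cow minus its mean over the 6 cows (y axis), with chemokine genes as solid lines and cell type markers as dashed lines. Lines join cows only to keep a gene recognizable, since cows have no order. In cow 489215 the panel of CCR1, CCR2 and CX3CR1 drops together with CSF1R and CD163, while CCR7 lies high together with CD8A and CD3E. The markers drawn do not stand for their whole lists. Of 9 macrophage and dendritic cell markers, 4 were lowest in cow 489215 and 5 in cow 617. Of 9 T and NK cell markers with a mean above 5, cow 489215 was highest in 5 and lowest in 2.

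Cow 489215 did not shift the family in a single direction. It held the highest value in 10 of 25 ligands and the lowest in 3, and the highest in 2 of 15 receptors and the lowest in 6. Over the 40 members its shares of highest and lowest values, 30.0% and 22.5%, were below the 36.0% and 35.5% it held over all genes. LF/LCL cow 79 was the highest in 11 of 40 members (27.5%, against 9.63% of all genes), 7 of them receptors, and the lowest in 0. Of the 9 T and NK cell markers with a mean above 5, cow 489215 held the highest value in 5 and the lowest in 2. CD8A and CD8B were among the highest, at 877 and 1499 normalized counts against at most 573 and 963 in the others. CD4 and GZMB were lowest there, at 5.33 and 43.9.

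Cows of the same group had a higher median spread in chemokine genes than in all genes, by a wide margin in LF/LCL and a smaller one in SF/SCL. The median coefficient of variation of the 40 members was 41.5% among LF/LCL cows and 57.6% among SF/SCL cows, beside 12.5% and 37.8% over all genes with a mean above 5. Restricted to genes with a mean from 15 to 1000, the LF/LCL values were 41.5% for 30 members and 15.8% for 8935 genes, and the SF/SCL values were closer together, at 45.9% and 40.8%. Between SF/SCL cows 856 and 97 alone they were 36.7% and 9.34% over members and genes with a mean above 5. Members and all genes were not matched for level within these ranges. Counting error adds more to the spread of genes with few reads, and its part here was not tested.

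Of 38 tested G-protein, kinase, Rac and RGS genes downstream of chemokine receptors, 0 passed an adjusted p-value of 0.05 in limma, 3 were higher in SF/SCL at an unadjusted p-value under 0.05 (ELMO1, GNG2 and PAK1, which act in Rac-driven migration and G-protein coupling; 4.19% of all genes in that direction) and 2 were higher in LF/LCL (RGS16, a brake on G-protein signalling, and ROCK1, a kinase of the actomyosin cytoskeleton; 4.48%). The groups did not overlap in 13 of 39 rows with a mean above 5, or 33.3%, where 18.1% of all genes did not. Of the 13, 7 were higher in SF/SCL (9.52% of all genes) and 6 in LF/LCL (8.56%). PAK1 had 1515, 1256 and 1501 normalized counts in LF/LCL and 2609.9, 2136 and 2095 in SF/SCL, with a log2 fold change of 0.68. RGS16 had 129.8, 279 and 213 against 75.2, 124 and 105, with no overlap and a log2 fold change of -0.99. Without cow 489215, 3 of the 38 passed a limma adjusted p-value of 0.05 as higher in SF/SCL (ELMO1, GNG2 and PAK1). Another 3 passed as higher in LF/LCL (ROCK1 and both GNG11 genes), against 18.2% of all genes in either direction.

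Of the genes that cut or present chemokines, 5 were tested and all had a log2 fold change below 0 (51.4% of all genes), 3 of them with an unadjusted p-value under 0.05 (4.48% of all genes in that direction). Beside ADAM10 these were MMP2, a protease that clips CXCL12 and CCL7, with 10524, 11121 and 14848 normalized counts against 5327, 8707 and 6395, and the proteoglycan SDC1, which binds chemokines at the epithelial surface, with 3274, 3096 and 3153 against 656, 2873 and 1303. All SF/SCL cows lay below all LF/LCL cows for both. Without cow 489215, ADAM10, MMP2 and SDC1 had limma adjusted p-values of 0.0324, 0.0112 and 0.00863, all lower in SF/SCL. In that direction 7.92% of all genes were under 0.05. DPP4, a peptidase that inactivates CXCL12, was not tested because its SD exceeded its mean, at 9.42, 50.7 and 64.1 against 34.2, 5.33 and 189.7.

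Of 13 tested genes that induce chemokines, IL1B, a cytokine of activated macrophages, was the single gene higher in LF/LCL at an unadjusted p-value under 0.05. IL1B had 13.6, 17.8 and 27.2 normalized counts against 3.04, 3.99 and 6.50, with no overlap and a log2 fold change of -1.89. TNF, another such cytokine, was also separated by group at 18.8, 16.9 and 19.3 against 5.32, 13.3 and 8.67 (log2 fold change -1.01, limma unadjusted p = 0.0707).

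The atypical receptors outside the naming rule had overlapping groups. DARC, the promiscuous chemokine binder of venules and red cells, stood at 204, 253 and 267 normalized counts against 98.0, 297 and 158. CCRL1, a scavenger of CCL19, CCL21 and CCL25, stood at 295, 213 and 131 against 85.8, 453 and 116. CCBP2, a scavenger of inflammatory CC ligands, stood at 24.1, 84.5 and 54.5 against 70.6, 49.3 and 55.3.

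In DARC and CCRL1, cow 489215 was the highest of all and the other SF/SCL cows stood below every LF/LCL cow, the arrangement also seen in CCL14 and in 4 smooth muscle markers, whose part in these receptors was not tested. RARRES2, the precursor of the chemokine-like attractant chemerin, had 4088, 6606 and 3220.0 normalized counts against 1452, 4911 and 1866, with a log2 fold change of -0.90 (limma unadjusted p = 0.1195) and, without cow 489215, -1.43 (adjusted p = 0.0223).

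Many members lie side by side. In the gene order of the Tharparkar Bos indicus RefSeq annotation, which holds 38 of the 47 symbols, 10 pairs of members had no protein-coding gene between them. These included CCR2 with CCR3, XCR1 with CXCR6 and CXCR6 with CCR9, CXCL10 with CXCL11, CCL19 with CCL21, CCL16 with CCL5, and CX3CL1 with CCL22 and with CCL17. Neighbours did not share a pattern throughout, since the groups of CCL21 did not overlap and those of CCL19 did.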

How the data were processed

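Each of the 6 isthmus libraries was 1 cow. Per the methods and the submitters' processing notes, the authors aligned filtered reads to the masked bovine genome UMD3.1 with TopHat2 2.0.8 and Bowtie2 2.1.0, used HTSeq to count the uniquely mapped reads of each Ensembl gene, and divided the counts by DESeq size factors. Use of strand in counting is not given in the sources used here. The deposited signal values are these size-factor normalized counts. Each library's values were multiples of the worth of 1 read, and 100% of 147696 values came out as whole reads (within 0.02 read). Members and gene lists were chosen with earlier results of these data known.

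SF/SCL was compared with LF/LCL in limma 3.58.1 (R 4.3.3, eBayes with trend and robust set) after adding 1 and taking log2, with the methods' filter (mean above 5 and above the SD) and Benjamini-Hochberg adjustment over 15387 genes. Alternatives were edgeR 4.0.16 and DESeq2 1.42.0 on the recovered reads, other filters and pseudocounts, rescaled values, and leaving out each cow. The scripts were tested on simulated data. By rule, members with a mean above 5 were described, and other genes were named from role and marker lists. Limits from reads cover counting error only. No genome sequence of the build was used, so no positions or sequences are given. Gene order came from NIAB-ARS_B.indTharparkar. Some genes of the family and of the lists are counted but not reported here.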

Additional observations from a re-analysis of the deposited data

How the results depend on the processing

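No paired analysis was possible because the cow numbers are not shared between the groups. Of 40 members compared, 24 kept the sign of their log2 fold change under every alternative. Count models reversed 7: under edgeR with TMM, edgeR with DESeq2 size factors and DESeq2, in that order, CX3CR1 was 0.0685, 0.0701 and 0.0680, CXCL11 0.0576, 0.0747 and 0.0879, CXCL13 0.12, 0.13 and 0.13, CCL14 0.20, 0.23 and 0.23, CCL19 0.31, 0.34 and 0.34, CX3CL1 0.0382, 0.0391 and 0.0386, and CXCL9 -0.11, -0.10 and -0.10. A pseudocount of 5 gave CXCL13 0.0118. The cause was not tested.

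Leaving out each cow in turn reversed 16 members. The lowest and highest log2 fold changes were -0.68 and 0.56 for CCR3, -0.26 and 0.61 for CCL28, -1.01 and 0.29 for CX3CR1, -0.87 and 0.68 for CXCL11, -0.87 and 0.91 for CXCL13, -0.72 and 0.34 for CCL14, -1.20 and 0.77 for CCL19, -0.99 and 0.39 for CCL8, -0.55 and 0.00936 for CXCR3, -0.52 and 0.43 for CCR7, -1.02 and 0.66 for CXCL17, -0.10 and 0.21 for CCR10, -1.44 and 0.20 for CCR1, -0.74 and 0.50 for CX3CL1, -1.20 and 0.55 for CCL24, and -0.59 and 0.64 for CXCL9.

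The number of genes past the threshold, 0 in limma, was 409 in DESeq2 and 0 to 2827 when a cow was left out, and that of members 0 to 2, the upper values both without cow 489215. The count at an unadjusted p-value under 0.05 was chosen after seeing the data. Members whose groups did not overlap numbered 8 with genes of any level included (CCL1, CCL17 and XCR1 added). Without a cow they numbered 6 to 17, where fewer cows make non-overlap more frequent in all genes too. They were 11 without cow 617 (26.7% of genes), 10 without 527 (22.6%), 8 without 97 (24.7%) and 17 without 489215 (52.3%). The lowest count, 6, was without cow 79 or 856. No share of all genes is given for those settings or for genes of any level. Their member counts therefore cannot be read against all genes. The ligand sum difference, -6739.9, was 236 without CXCL12. Depth limits members of a few reads, such as XCL1 and CCL20.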
